A study of Mus musculus with 2 samples.

Results

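Microglia are the resident macrophages of the brain, and 1257 of the 30945 deposited cell barcodes were taken as embryonic microglia. Of these, 647 came from the Foxq1flox/flox library and 610 from the Foxq1iECKO library. A barcode was kept with at least 1000 unique molecular identifiers (UMIs, each marking 1 captured RNA molecule), at least 500 genes and at most 20% mitochondrially encoded UMIs. The members were thus chosen by measured UMIs of 16 genes. A kept barcode was called microglia when it had a UMI for 3 or more of 6 macrophage genes (Csf1r, C1qa, C1qb, C1qc, Tyrobp, Fcer1g) and for 2 or more of 3 microglial genes (P2ry12, Siglech, Gpr34). It could have a UMI for at most 1 of 3 genes of border macrophages (F13a1, Mrc1, Lyve1) and for at most 2 of 4 interferon-induced genes (Rsad2, Ifit1, Ifit2, Ifit3).

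The series concerns FOXQ1, a forkhead transcription factor, in endothelial cells of growing central nervous system vessels and in the formation of the blood-brain barrier. Each library held mouse brain cells of stage E12.5 (mid-gestation), 1 from Foxq1flox/flox and 1 from Foxq1iECKO mice, whose name and series title point to a loss of Foxq1 in endothelial cells. In both, dissociated cells were enriched with CD31 microbeads and captured in microwells for 3' single-cell RNA sequencing. The number of embryos per library, the Cre driver, its induction and the deleted part of Foxq1 were not given in the sources used here. With 1 library per genotype no difference between the libraries could be tested. Intervals are exact 95% intervals that cover counting error only, and an embryo, a dissection or a library effect cannot be told apart from the genotype.

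Microglia descend from yolk sac progenitors that reach the brain early in development, and they need signalling through the receptor CSF1R. In the embryonic brain they are known for clearing dying cells, for gathering at axon tracts and proliferative zones, and for contact with sprouting vessels. Border macrophages of the meninges, perivascular spaces and choroid plexus share that origin but settle at the surfaces of the tissue.

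The libraries held 76580165 and 72445925 UMIs over 15837 and 15108 barcodes (Foxq1flox/flox first, here and below), of which 13933 and 13108 were kept. The sorted cells were labelled endothelial, yet 1490 and 1971 kept barcodes had 3 or more of the 6 macrophage genes, so shares of microglia describe what the CD31 sort retained. The libraries shared 270 barcode sequences, 12 and 14 of them on microglia, and no barcode sequence was microglia in both. Scrublet predicted 3.83% and 3.94% of kept barcodes to be doublets, and 9.89% and 10.2% of microglia; these were not removed. Foxq1 stood at 460 and 271 UMIs per 1000000 (CPM) in barcodes with 3 or more of 10 endothelial markers. In microglia it was at 22.2 and 18.0 CPM, below the 50.2 and 53.5 CPM of barcodes with neuronal markers, so it was not read as expression there.

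Microglia had a median of 5249 and 4594.5 UMIs and of 2284 and 2083.5 genes per cell, and together 3783534 and 3159659 UMIs. The genes used by the rule give a description of the cells and no test. P2ry12, a purinergic receptor that steers microglial processes to ATP, was at 1556 CPM in Foxq1flox/flox and 1676 CPM in Foxq1iECKO microglia, against 128 and 107 CPM in border macrophages. Siglech, a sialic acid binding lectin, was at 332 and 344 CPM, and Gpr34, a lysophosphatidylserine receptor, at 267 and 264 CPM. All 3 were therefore at like levels in the libraries and low in border macrophages. Csf1r was at 669 and 705 CPM, and Fcer1g, an adaptor chain of activating Fc receptors, at 1619 and 1577 CPM. The complement chains C1qa, C1qb and C1qc ran from 73.7 to 856 CPM in Foxq1flox/flox and from 65.8 to 833 CPM in Foxq1iECKO microglia. Tyrobp, the adaptor of TREM2, was at 94.1 and 66.1 CPM, a log2 ratio of -0.51 (Foxq1iECKO over Foxq1flox/flox, as for every genotype ratio below).

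The rule cut through a continuum. Among microglia, 330 and 287 had all 3 microglial genes and 317 and 323 had 2 of 3, while 141 and 201 otherwise eligible barcodes with 1 of 3 stayed outside. Cx3cr1, the fractalkine receptor, which the rule did not use, was at 1804, 1685 and 1128 CPM across these classes in Foxq1flox/flox and at 2040, 1728 and 1219 CPM in Foxq1iECKO. On the border clause, 392 and 396 microglia had none of the 3 border genes and 255 and 214 had 1, and 42 and 50 barcodes with 2 stayed outside, with Cx3cr1 at 1204 and 1172 CPM. The interferon clause left out 24 and 36 barcodes that met the other clauses, and 34 and 33 stayed outside with 2 of the 6 macrophage genes.

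Border macrophages were set beside microglia as the most similar cells: kept barcodes with 3 or more of the 6 macrophage genes, 2 or more of the 3 border genes, at most 1 of the 3 microglial genes and at most 2 of the 4 interferon genes (406 and 635 barcodes). The rule used this contrast, so the values below are a description. Of 6497 genes at 20 CPM or more, 169 (2.6%) were 2-fold or more higher in microglia in both libraries and 204 (3.14%) 2-fold or more lower. Sall1, the zinc finger factor that maintains microglial identity, was at 217 and 261 CPM in microglia and at 6.24 and 6.22 CPM in border macrophages, 34.8-fold and 42.0-fold higher. Among the other genes of this side were Serpine2, a secreted protease inhibitor (27.5-fold and 20.7-fold), and Slc2a5, the fructose transporter (21.8-fold and 17.4-fold). Olfml3, a secreted olfactomedin-like protein, was 13.3-fold and 17.8-fold higher, and Havcr2, the checkpoint receptor TIM-3, 17.7-fold and 12.2-fold.

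The remaining genes of that rank were Rtn4rl1, Npnt, Blnk, Arsb, Lair1, Golm1, F11r, Arhgap24, Gpr155, Il1a, Cd9, Lpcat2, Cadm1 and Mpeg1. They reached from 4.61-fold (Mpeg1, a pore-forming protein of phagosomes) to 18.3-fold (Npnt, a matrix protein), both in Foxq1flox/flox. On the other side, Pf4, a chemokine of platelets and border macrophages, was at 8.46 and 9.49 CPM in microglia against 521 and 491 CPM, 61.6-fold and 51.7-fold lower. Ccl24, an eotaxin, was 27.9-fold and 24.6-fold lower, and the scavenger receptor Msr1 42.5-fold and 18.4-fold. Ednrb, Clec4a1, Clec4e, Cmah, Ifi203, Ccl7 and Cd36 followed, at 10.5-fold to 25.3-fold lower. Of a list of 30 microglial genes outside the rule, 25 could be compared, 16 were 2-fold or more higher in both libraries and none lower. Of 19 compared border macrophage genes none was higher and 16 were lower, and of 27 interferon genes none was higher and 17 were lower. The rule parted the groups by microglial and border genes, so the directions of those lists cannot test the label. The interferon clause was the same for both groups, and the interferon result is a description as well. Tmem119, a marker of mature microglia, was at only 14.5 and 15.2 CPM in microglia.

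**Figure D1:**
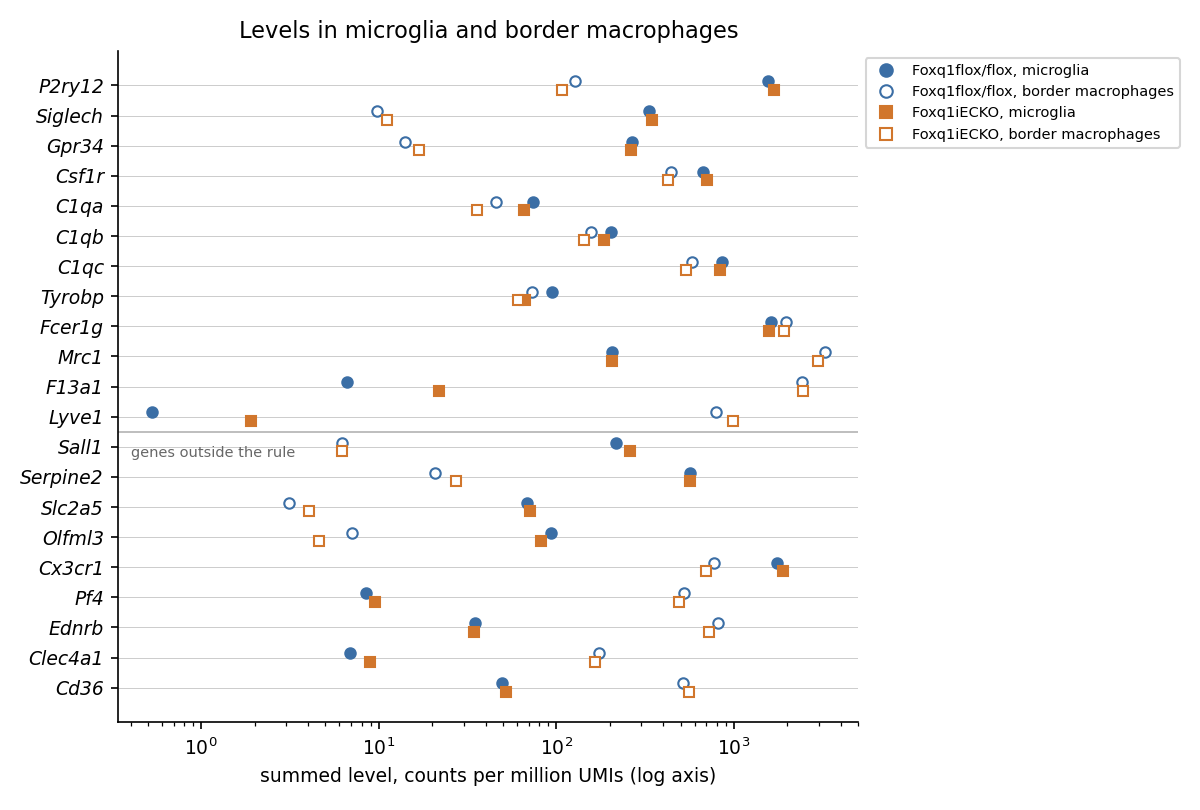
Levels of 21 genes, in CPM of the summed UMIs on a log axis, in microglia (filled) and border macrophages (open) of the Foxq1flox/flox library (blue circles) and the Foxq1iECKO library (orange squares). Above the line are genes that the membership rule used; below it, Sall1 stood at 217 and 261 CPM in microglia and near 6 CPM in border macrophages, and Pf4 showed the reverse order.

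Microglia made up 4.64% (95% exact binomial interval 4.30 to 5.01) of kept barcodes in Foxq1flox/flox and 4.65% (4.30 to 5.03) in Foxq1iECKO. The other macrophage groups stood apart between the libraries. Border macrophages made up 2.91% and 4.84% of kept barcodes. Macrophages with 3 or more of the 4 interferon genes made up 0.804% and 2.09%. Because these groups differed, microglia were 43.4% of macrophage barcodes in Foxq1flox/flox and 30.9% in Foxq1iECKO. The dissection, the number of embryos and the sort were not tested as sources of these differences.

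**Figure D2:**
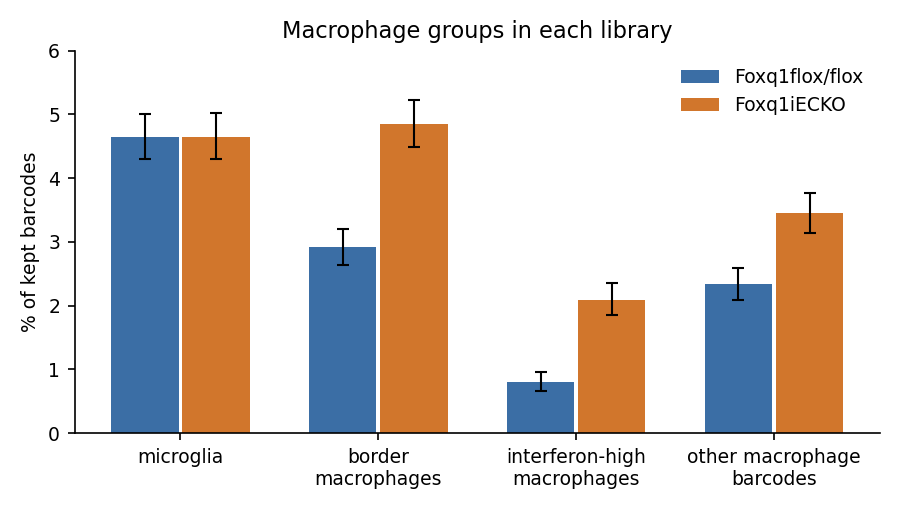
Share of kept barcodes (%) in each macrophage group, with bars for the Foxq1flox/flox (blue) and Foxq1iECKO (orange) libraries and exact 95% binomial intervals that cover counting error only. The microglia bars are 4.64% and 4.65%, while the interferon-high bars are 0.804% and 2.09%.

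Microglia within each library varied most in chemokines and interleukin-1. To compare cells at 1 depth, each was thinned to 2000 UMIs (625 and 585 cells; 22 and 25 shallower cells were left out), and genes were ranked by the Fano factor, the variance over the mean, which was 1.09 and 1.10 at the median of 5187 genes. Ccl3, a chemokine that attracts leukocytes, had the highest value, 12.1 and 10.8, with a mean of 12.4 and 12.2 UMIs per cell. It had a UMI in 89.4% and 89.9% of thinned cells. Ccl4, a closely related chemokine, followed with 9.64 and 9.87. In barcodes with neuronal markers, thinned alike, 3.04% and 3.41% had a Ccl3 UMI and 3.26% and 3.46% a Ccl4 UMI. Ccl2 and Cxcl10 were in fewer microglia, 40.0% and 42.4% for Ccl2 and 46.6% and 52.1% for Cxcl10. Il1b, which encodes interleukin-1 beta, was in 30.9% and 38.1% of thinned cells, and the top 10% of cells held 72.1% and 60.5% of its UMIs.

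Cxcl10, Hmox1, Il1a, Adamts1, Spp1, Fos and Ccl2 were the other genes of the first 15 that were not over 5 times higher in another cell class. Hmox1, the haem-degrading enzyme, had a UMI in 58.4% and 60.5% of thinned cells and Adamts1, a secreted metalloprotease, in 30.1% and 28.7%. Col1a1, Col1a2, Col9a1, Col11a1 and Rgs5, genes of mesenchyme, cartilage and pericytes, also ranked among the 15, and all were over 5 times higher in another class. Across cells, the logged thinned UMIs of Ccl3 and Ccl4 correlated with r = 0.72 and 0.73 (625 and 585 cells, each set sharing 1 library and the thinned depth). Ccl4 and Il1a correlated with r = 0.39 and 0.45, and Il1a and Il1b with 0.32 and 0.40. Spp1 and P2ry12 gave -0.17 and -0.086, a weak relation in sparse counts.

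A share of microglia carried many transcripts of the G2/M phase. The summed UMIs of 51 G2/M genes had a median of 5 and 6 per thinned cell, an upper quartile of 20 and 21 and a maximum of 63 and 73. At 15 or more such UMIs stood 31.4% of Foxq1flox/flox microglia (27.7 to 35.2) and 32.6% of Foxq1iECKO microglia (28.9 to 36.6). Border macrophages had 35.8% and 34.1%, barcodes with endothelial markers 35.7% and 36.5%, and barcodes with neuronal markers 18.0% and 28.8%. That boundary was set after the values were seen and lies in a range without a gap: 34 and 49 microglia had 10 to 14 UMIs, and 37 and 33 had 15 to 19. Cells past it were deeper before thinning, with a median of 7024 and 6021 UMIs against 4739 and 4222.

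**Figure D3:**
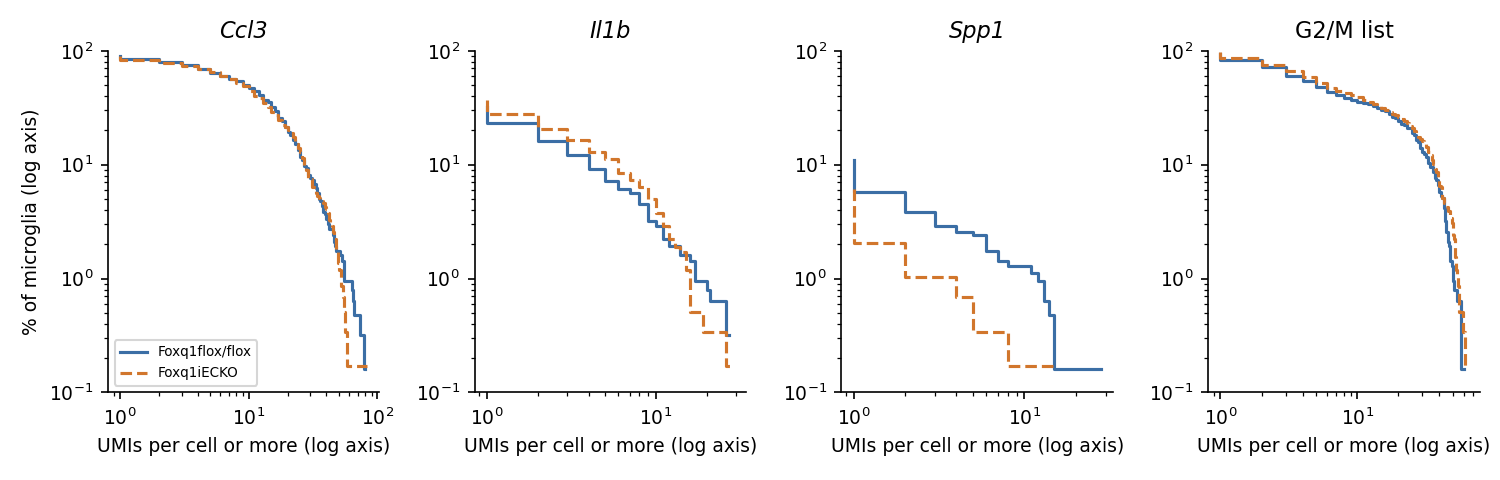
Share of microglia (%, log axis) with at least the number of UMIs on the x axis (log axis) for Ccl3, Il1b, Spp1 and the summed G2/M list, after thinning each cell to 2000 UMIs; solid blue, Foxq1flox/flox (625 cells), dashed orange, Foxq1iECKO (585 cells). The lines nearly coincide for Ccl3 and the G2/M list, while for Spp1 the Foxq1flox/flox line lies higher from its first point. In the cells drawn, 557 of the 625 Foxq1flox/flox and 549 of the 585 Foxq1iECKO microglia had no Spp1 UMI.

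The genotype comparison asked how microglia of the 2 libraries differed. The genes of the rule were not left out of it, and F13a1 and Ifit1 were among those counted as higher. UMIs were summed over the microglia of each library, and a gene was counted as higher or lower when its CPM differed by 1.5 times or more and its exact interval excluded equality. Of 6495 genes at 20 CPM or more in a library, 100 (1.54%) were higher in Foxq1iECKO and 68 (1.05%) lower, with a median log2 ratio of 0.00 over all of them. Border macrophages gave 234 (3.48%) higher and 107 (1.59%) lower of 6730, and 402 (4.65%) and 185 (2.14%) of 8647 at 10 CPM or more. Of the 100 higher genes in microglia, 58 were over 5 times more abundant in a class that is not macrophage, as were 24 of the 68 lower genes. How many of all 6495 genes were so was not counted, so these shares have no background. Summed markers of such classes also differed between the libraries. The 9 fibroblast and mesenchyme markers were at 579 and 970 CPM in microglia (9451 and 11748 CPM in their own barcodes). The 8 pericyte markers were at 125 and 211 CPM and the 10 endothelial markers at 375 and 314 CPM. Each was detected except Higd1b among the pericyte markers. Their part in the result was not tested. Without microglia holding 3 or more markers of 1 such class, 100 genes were higher and 83 lower of 6196. Among these were only 28 of the 100 higher and 31 of the 68 lower genes, so the rest were other genes.

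Leaving those genes aside, 42 higher genes remained, of which 5 had 100 CPM or more over both libraries summed. Hspa1b and Hspa1a, near-identical copies of the inducible HSP70 chaperone whose reads may be split between them, were at 48.9 and 186 CPM in Foxq1flox/flox and at 93.0 and 284 CPM in Foxq1iECKO, log2 ratios of 0.93 (0.66 to 1.20) and 0.61 (0.47 to 0.76). Cmss1, a ribosomal small subunit factor, was at 63.7 and 109 CPM (0.78), but fewer cells had a UMI in Foxq1iECKO (25.2% and 22.0%) and 1 of them held 26. In barcodes that were not macrophages Cmss1 was at 82.5 and 139 CPM (0.75, 0.70 to 0.80). Prkg1, a cGMP-dependent kinase, was at 76.6 and 120 CPM (0.65). Ifnb1, which encodes interferon beta, was at 16.9 and 31.3 CPM (0.89, 0.42 to 1.37), with a UMI in 3.71% and 7.54% of cells. In border macrophages Hspa1b, Hspa1a and Prkg1 had log2 ratios of 0.23, 0.39 and 0.44, with intervals above 0. Cmss1 (0.15) and Ifnb1 (-0.06) had intervals that spanned 0 there. F13a1, a coagulation factor chain that the rule used, rested on 25 and 69 UMIs, of which 1 Foxq1iECKO cell held 23. Plet1, Exd2, Bend6 and the nonagouti gene a lay between 9.51 and 26.6 CPM in either library. In Foxq1iECKO, 1 cell held 22 of the 65 Plet1 UMIs and 1 cell held 32 of the 84 Bend6 UMIs. Hspa1a and Prkg1 each missed the size rule in 5 of 13 alternative settings, Bend6 in 6 and Plet1 in 4.

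The lower side was led by Spp1, described next. Cyba, the small subunit of the phagocyte NADPH oxidase, was at 30.4 and 13.3 CPM (log2 ratio -1.19, -1.74 to -0.67). Pmp22, a membrane protein known from myelin, was at 56.6 and 32.0 CPM (-0.82, -1.18 to -0.48). Olr1, a receptor for oxidised lipoprotein, was at 32.2 and 16.8 CPM (-0.94) and was lower in border macrophages as well (-0.63). Dcstamp, which takes part in the fusion of macrophages and osteoclasts, was at 22.2 and 11.4 CPM, and Jdp2, an AP-1 family repressor, at 38.3 and 21.2 CPM. Atp5g1, Brd9, Nisch, BC031181 and Ccnf lay between 17.7 and 53.7 CPM in either library.

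**Figure D4:**
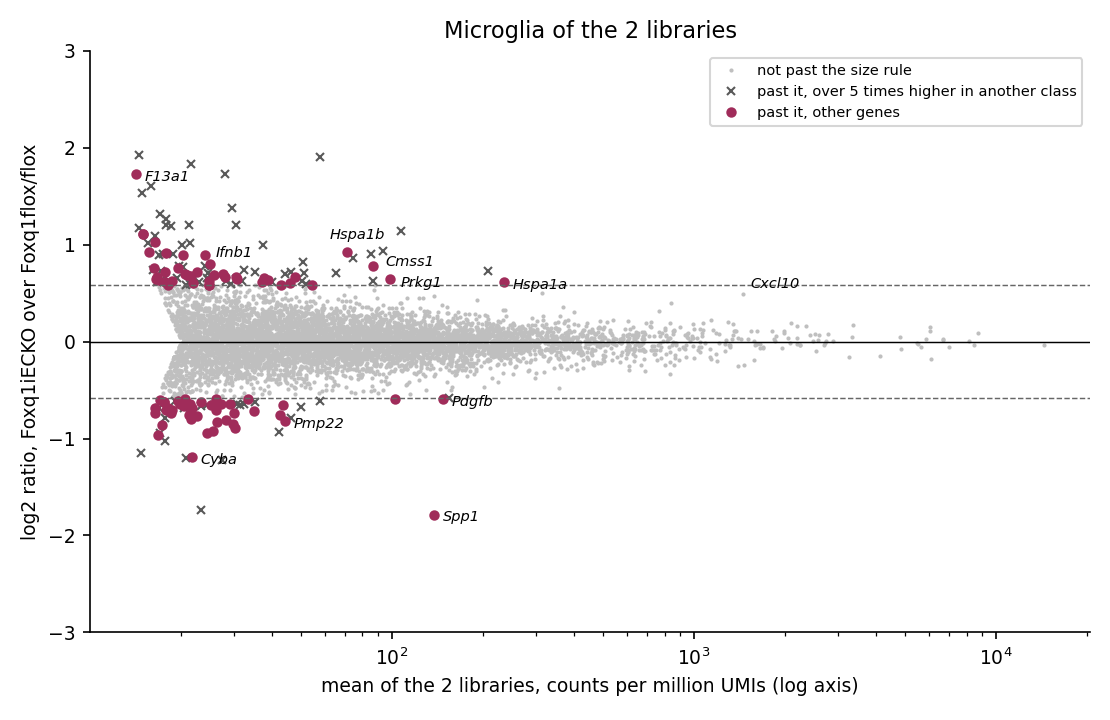
Log2 ratio of CPM in microglia, Foxq1iECKO over Foxq1flox/flox, against the mean CPM of both libraries (log axis) for 6495 genes. Grey dots did not pass the size rule, crosses passed it but were over 5 times higher in another cell class, and coloured dots are the other genes past it; dashed lines mark a ratio of 1.5. Spp1 lies at -1.79 and Cxcl10 at 0.49.

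Spp1 encodes osteopontin, a secreted phosphoprotein of microglia at axon tracts. It was at 214 CPM (811 UMIs) in Foxq1flox/flox and 62.0 CPM (196 UMIs) in Foxq1iECKO microglia, a log2 ratio of -1.79 (-2.02 to -1.56). In border macrophages it was at 67.5 and 101 CPM (0.59, 0.32 to 0.86), and in barcodes that were not macrophages at 2.86 and 3.90 CPM. The log2 ratio was thus below 0 in microglia and above 0 in border macrophages, a difference that was not tested. Few cells carried it: 52 Foxq1flox/flox microglia (8.04%, 6.06 to 10.4) and 24 Foxq1iECKO microglia (3.93%, 2.54 to 5.80) had 3 or more Spp1 UMIs, and they held 94.1% and 77.6% of all Spp1 UMIs in microglia. The cell with the most held 85 UMIs (10.5%) in Foxq1flox/flox and 17 in Foxq1iECKO. Spp1 passed the size rule in each of 13 alternative settings.

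The cells with 3 or more Spp1 UMIs, chosen after the values were seen, also had higher levels of some other genes of the axon tract list. That list held microglial genes known from axon tracts and proliferative regions. Fabp5, a fatty acid binding protein, was at 876 CPM in them against 153 CPM in microglia with no Spp1 UMI in Foxq1flox/flox, and at 677 against 139 CPM in Foxq1iECKO. Igf1, insulin-like growth factor, was at 624 against 147 CPM and at 415 against 137 CPM. Gpnmb, a lysosomal glycoprotein, was at 54.7 against 5.59 CPM in Foxq1flox/flox and rested on 3 UMIs in the Foxq1iECKO cells. These 3 were 2-fold or more higher in both libraries, of 21 measured genes of the list (14.3%), as were 69 of all 8136 genes (0.848%). Higher by any amount in both libraries were 15 of the 21 (71.4%) and 1926 of the 8136 (23.7%). Axl, Vim and Ccl4 were lower in both libraries, and Ccl3, Lilrb4a and Anxa2 were higher in 1 library and lower in the other. Ctsb, cathepsin B, was at 9295 against 4993 CPM and at 8687 against 5195 CPM, and Csf1, a ligand of CSF1R, at 700 against 265 CPM and at 326 against 243 CPM. P2ry12 was at 1075 against 1625 CPM and at 1379 against 1681 CPM, and Sall1 at 192 against 220 CPM and at 236 against 266 CPM. Predicted doublets were 2 of the 52 and 1 of the 24, and the cells were deeper, with medians of 6490.5 and 6345.5 UMIs against 5106 and 4547.

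Over all microglia, 22 genes of the axon tract list were measured at 10 CPM or more, where the background of 8388 genes was 211 (2.52%) higher and 158 (1.88%) lower. Spp1 and Gpnmb (11.1 and 6.33 CPM, -0.81) were lower, and Itgax, the integrin CD11c, was higher (29.3 and 46.2 CPM, 0.66). The median log2 ratio of the list was -0.17, with 18 of 22 below 0, against 0.00 over the 8388 genes. Fabp5 (-0.47) and Igf1 (-0.36) lay within the size limit. The 250 bases before the Spp1 start are shown because this gene had the lowest interval of the comparison; they come from RefSeq on GRCm38.p6, plus strand at chr5:104434861-104435110, and the capitals mark GAGGAAGT, a PU.1-type site.
Spp1: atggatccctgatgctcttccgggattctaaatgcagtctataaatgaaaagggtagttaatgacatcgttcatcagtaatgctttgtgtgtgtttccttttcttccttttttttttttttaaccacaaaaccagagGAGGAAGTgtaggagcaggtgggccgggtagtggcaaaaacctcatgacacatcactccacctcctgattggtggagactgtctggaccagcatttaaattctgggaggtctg
GAGGAAGT was found on either strand before 2.79% of 27025 genes of that table, and before none of 24 matched microglial genes outside the rule. The window also held 1 match to the interferon-stimulated response element described with the interferon genes, which did not overlap it.

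Vessel-active factors were examined as a list because the series concerns endothelial cells. Of 28 measured, 1 was lower and 3 were higher, against 1.88% and 2.52% of all 8388 genes. The median log2 ratio was -0.18 with 21 of 28 below 0, against 0.00 and 4173 of 8388 over all genes. The lower gene was Pdgfb, the ligand that draws pericytes to vessels. It was at 178 and 118 CPM (-0.60, -0.78 to -0.41), with a UMI in 43.7% and 32.0% of microglia. In border macrophages Pdgfb was at 59.3 and 67.9 CPM (0.20, -0.10 to 0.50), and in barcodes that were not macrophages at 111 and 88.9 CPM. Pdgfb missed the size rule in 3 of 13 alternative settings, with log2 ratios from -1.06 to -0.46. Plau, the urokinase-type plasminogen activator, was at 764 and 618 CPM (-0.31, -0.39 to -0.22), Sparc, a matricellular protein, at 1914 and 2060 CPM (0.11) and Vegfb at 57.1 and 55.7 CPM (-0.04). The 3 higher genes, Cxcl12 (16.4 and 42.7 CPM), Mmp14 and Wnt5a, were all over 5 times more abundant in another class, as was Vegfa at 15.6 and 11.7 CPM.

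Interferon-induced genes outside the rule leaned to the Foxq1iECKO library. The rule itself removed barcodes with 3 or more of Rsad2, Ifit1, Ifit2 and Ifit3, so these values describe what stayed. Of 26 measured genes, 20 were above 0, with a median log2 ratio of 0.30, against 4213 of 8388 and 0.00 over all genes. Over 13 alternative settings the median of the list ran from 0.046 to 0.54. Past the size rule, 2 of 26 were higher and none lower, against 2.52% and 1.88% of all 8388 genes. The 2 were Gbp5 (8.72 and 16.1 CPM, 0.89) and Irgm2 (9.51 and 17.1 CPM, 0.84), both interferon-induced GTPases. Cxcl10, the chemokine ligand of CXCR3, was at 1207 and 1692 CPM (0.49, 0.43 to 0.54) with a UMI in 55.6% and 60.7% of microglia, within the size limit. The list summed to 2354 and 2905 CPM in microglia, to 4998 and 4890 CPM in border macrophages (median 0.03 over 36 measured genes) and to 626 and 773 CPM in barcodes that were not macrophages (median 0.31 over 21). The median was thus of like size outside the macrophages. Without Cxcl10 the list summed to 1147 and 1213 CPM in microglia, a log2 ratio of 0.081, while the median over the other 25 genes was 0.29. Of the 4 interferon genes of the rule, 3 were higher past the size rule and none lower, against the same 2.52% and 1.88%. They summed to 58.7 and 94.9 CPM (0.69, 0.44 to 0.95), a description because the rule used them. Ifit1, over 5 times more abundant in another class, was at 9.51 and 33.9 CPM and Ifit2 at 37.8 and 32.3 CPM.

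Windows of 250 bases before the start are shown for these 3 interferon genes because Cxcl10 was the most abundant of the list and the others passed the size rule, and each held the interferon-stimulated response element searched for (GAAA and GAAA parted by any 2 bases, on either strand), marked in capitals. The sequences come from RefSeq on GRCm38.p6: Cxcl10 on the minus strand at chr5:92348890-92349139, Gbp5 on the plus strand at chr3:142496684-142496933 and Irgm2 on the plus strand at chr11:58214727-58214976, each written in the direction of its gene.
Cxcl10: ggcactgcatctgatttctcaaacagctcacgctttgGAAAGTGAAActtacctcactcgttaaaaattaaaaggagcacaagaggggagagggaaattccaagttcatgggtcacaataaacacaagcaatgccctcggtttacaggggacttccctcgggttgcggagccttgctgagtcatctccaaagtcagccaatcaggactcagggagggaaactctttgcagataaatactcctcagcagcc
Gbp5: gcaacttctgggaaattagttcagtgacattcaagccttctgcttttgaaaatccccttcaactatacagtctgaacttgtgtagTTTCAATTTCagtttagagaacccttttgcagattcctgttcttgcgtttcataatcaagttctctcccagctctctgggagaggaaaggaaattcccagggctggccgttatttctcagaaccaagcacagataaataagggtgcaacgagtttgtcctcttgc
Irgm2: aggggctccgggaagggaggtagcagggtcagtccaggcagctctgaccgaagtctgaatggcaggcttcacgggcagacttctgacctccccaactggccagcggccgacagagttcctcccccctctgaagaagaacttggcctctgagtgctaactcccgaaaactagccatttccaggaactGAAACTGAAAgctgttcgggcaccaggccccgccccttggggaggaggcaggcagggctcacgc
The element was found before 22 of 39 matched interferon genes outside the rule (56.4%), before none of 24 matched microglial genes outside the rule, and before 3.46% of 27025 genes. An AP-1-type motif (TGANTCA) and an NF-kB-type motif (GGGA and CCC parted by any 3 bases), also searched on both strands, were found before 8 and 3 of the 39 interferon genes and before 7.82% and 5.44% of all genes. No marked element overlapped another of these motifs. A match is a description of letters, not of binding.

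Of 28 measured microglial genes outside the rule, 1 was higher (Gpr84, a receptor for medium-chain fatty acids, 16.1 and 26.0 CPM) and none lower, with a median log2 ratio of 0.00. Counts of this size, here and for the transcription factors, receptors and border genes that follow, are near the background of 2.52% higher and 1.88% lower among all 8388 genes. Cx3cr1 was at 1751 and 1883 CPM (0.10) and Lgmn, a lysosomal endopeptidase, at 2220 and 2474 CPM (0.16). None of 23 measured myeloid transcription factors passed the size rule; Spi1, which encodes PU.1, was at 164 and 162 CPM, Mef2c at 677 and 662 CPM, Runx1 at 394 and 348 CPM and Sall1 at a log2 ratio of 0.27 (0.13 to 0.41). None of 26 cytokine and growth factor receptors passed either, among them Tgfbr1 (821 and 885 CPM) and Tgfbr2 (280 and 316 CPM), receptors of TGF-beta. Of 13 border macrophage genes none passed.

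Of 26 measured phagocytic genes, 3 were higher and 1 was lower, against 2.52% and 1.88% of all 8388 genes, and all 4 were under 31 CPM. The higher genes were the scavenger receptor Msr1 and the Fc receptors Fcgr2b (inhibitory) and Fcgr4 (activating), and the lower was Scarb1, a lipoprotein receptor. Mertk, which recognises dying cells through bridging proteins, was at 181 and 182 CPM. Of 30 lysosomal genes 1 was lower (Neu1, a sialidase, 16.9 and 8.86 CPM), and Ctsb and Ctss, the most abundant, had log2 ratios of -0.02 and 0.05. Of 14 genes of iron and haem handling, Blvrb, a biliverdin reductase, and Slc39a14, a metal ion importer, were lower, and the median was -0.21 with 11 below 0. Fth1 and Ftl1, the ferritin chains, were at 673 and 548 CPM (-0.30) and at 334 and 266 CPM (-0.33). Of 7 complement genes outside the rule 1 passed, Itgax again. Of 18 purinergic and chemotactic receptors 1 did, Adora3, a gene over 5 times higher in another class.

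Of 26 inflammatory genes measured, none passed the size rule, near the background of 2.52% higher and 1.88% lower, and the median log2 ratio was 0.08. Il1rn, the interleukin-1 receptor antagonist, lay farthest from 0, at 86.4 and 60.1 CPM (-0.52, -0.79 to -0.26). Ccl3 was at 5756 and 5532 CPM and Ccl4 at 4967 and 4701 CPM. Tnfaip3 and Nfkbia, inhibitors of NF-kB signalling, lay at 0.39 and 0.31 and Ccl2, a monocyte chemokine, at -0.25, all within the size limit. None of 42 S phase genes and none of 49 G2/M genes passed, with medians of 0.08 and 0.04; Mki67 was at 852 and 943 CPM and Top2a at 630 and 561 CPM. Of 28 immediate early and heat shock genes, Hspa1a and Hspa1b were higher, while Fos (0.12), Jun (0.12) and Egr1 (-0.07) lay near 0. None of 10 antigen presentation genes, 21 lipid handling genes or 21 glycolysis and hypoxia genes passed. Of 13 genes of the aryl hydrocarbon receptor and NRF2 pathways, Cyp1a1 and Ahrr were higher, both over 5 times more abundant in another class.

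**Figure D5:**
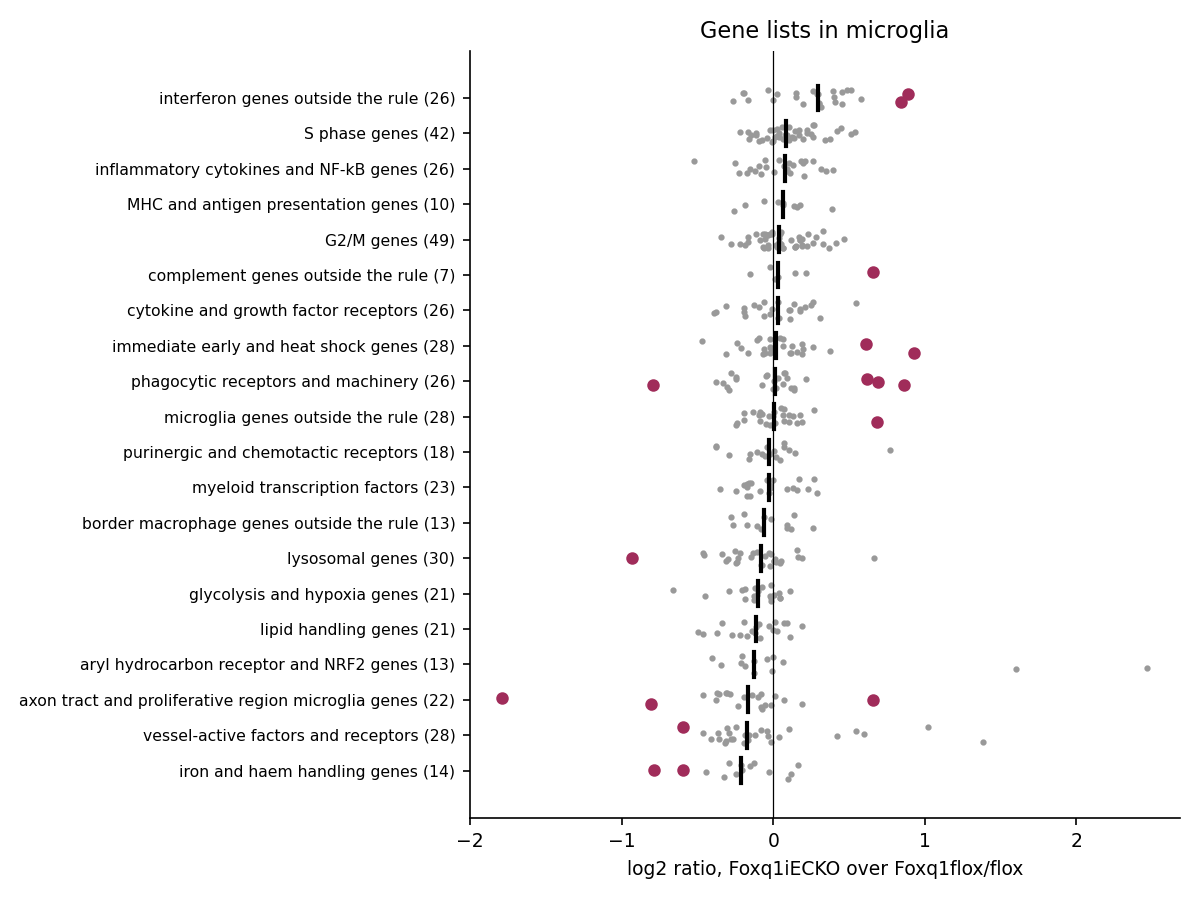
Log2 ratio, Foxq1iECKO over Foxq1flox/flox, of each measured gene (dot) in the gene lists, with the number measured in brackets and the list median as a bar; coloured dots passed the size rule and were not over 5 times higher in another cell class. The interferon list has the highest median, 0.30, and the iron and haem list the lowest, -0.21.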

How the data were processed

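CD31-enriched mouse brain cells of stage E12.5 were analysed, 1 library per genotype. The deposited values were UMI counts per gene and barcode; per the submitters' processing notes the authors used fastp 0.24.0 and STARsolo 2.7.11b with the mm10 build, and further settings were not stated. Each deposited barcode had at least 500 UMIs. UMIs of the barcodes chosen by the membership rule were summed per library and scaled to 1000000 (CPM), with Python 3.11.15, numpy 2.4.6 and scipy 1.17.1. Shares have exact Clopper-Pearson intervals. Ratios have exact conditional binomial intervals. Both cover counting error only, and no p-value was computed. The script was tested on simulated data.

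Genes were named by rank. For the genotype these were the 12 highest and 12 lowest by the interval limit nearest to 0 at 20 CPM or more. For the contrast with border macrophages they were 20 higher and 10 lower genes at 50 CPM or more, and for variation the 15 highest Fano factors at a mean of 0.05 UMIs or more per thinned cell. Mitochondrially encoded, ribosomal, haemoglobin, Y-linked and predicted genes, Xist, Tsix, shared symbols and genes with over 5 times their level in some other cell class were left out of the first 2 ranks. From each list, members past the size rule and the most abundant were named. The members and lists were chosen with earlier results of these data known. Doublets were predicted with Scrublet in scanpy 1.11.5, and TMM scaling used edgeR 4.0.16. Gene positions are from GENCODE on GRCm38 and promoters from RefSeq. Aldoa, Clec7a, Mx1 and Mx2 were not analysed here, and some genes of the ranks and lists are not reported here.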

Additional observations from a re-analysis of the deposited data

Results flagged for a closer look

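Of 121 genes named in the text, 14 had exact intervals on opposite sides of 0 in microglia and in border macrophages of the same 2 libraries. Many of the 121 were named for their rank or abundance. The share over all genes was not counted, so 14 of 121 cannot be called many or few. With 1 library per genotype these differences were not tested, and the intervals cover counting error only. Spp1 had a log2 ratio of -1.79 in microglia and 0.59 in border macrophages. Pmp22 had -0.82 in microglia and 0.66 in border macrophages, where it was at 78.8 and 124 CPM. Cxcl10 had 0.49 in microglia and -0.13 in border macrophages, where it was at 2070 and 1893 CPM. Msr1, at low levels in microglia, had 0.86 and -0.35.

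Among the others, Ccl2 (-0.25 in microglia and 0.10 in border macrophages) and Hmox1 (-0.21 and 0.23) were below 0 in microglia. Cx3cr1 (0.10 and -0.15), P2ry12 (0.11 and -0.25), Lgmn (0.16 and -0.076), Ctss (0.05 and -0.25), Jun (0.12 and -0.098) and Mki67 (0.15 and -0.14) were above 0 in microglia and below 0 in border macrophages. P2ry12 was used by the rule. Col11a1 (-0.59 and 0.56) and Col9a1 (-0.50 and 0.33) were over 5 times more abundant in another cell class.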

How the results depend on the processing

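The shares of microglia in the 2 libraries moved together. They were 4.15% and 4.08% at 500 UMIs with 250 genes, 5.06% and 5.12% at 2000 UMIs, 2.37% and 2.19% with all 3 microglial genes required, 2.81% and 3.02% with no border gene allowed, and 3.72% and 3.65% without members holding 3 or more markers of another class. Reading the rule after thinning every barcode to 2000 UMIs, an alternative chosen after seeing the data, gave 2.55% and 2.85%.

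The counts of genes depended more on the choices. With all 3 microglial genes required, 158 were higher and 170 lower, and with no border gene allowed 169 and 118. With cycling members left out, which kept 80 and 73 cells, 226 and 166 were counted. Cycling meant a UMI for 3 or more G2/M genes or 5 or more S phase genes before thinning. That held for 87.6% and 88.0% of microglia and for 91.5% and 92.9% of barcodes with neuronal markers. It thus took in far more than the 31.4% and 32.6% of thinned microglia with 15 or more G2/M UMIs. With the rule read at 2000 UMIs, 175 and 131 were counted. Thinning members to 2000 UMIs gave 145 and 120. A limit of 10 CPM gave 211 and 158, of 50 CPM 23 and 11, no limit 434 and 319, and a ratio of 2 gave 22 and 7. Genes 2-fold higher than in border macrophages numbered 369 with cycling members left out, 930 with no limit, and 82 at 3-fold. Without members holding markers of another class, 100 genes were higher and 83 lower. Of the 100 higher and 68 lower genes of the main setting, 28 and 31 were among them. Without predicted doublets 83 were higher and 82 lower, with 39 and 44 of the main setting among them. Atp5g1 reversed to 0.49 with cycling members left out and Ccnf to 0.0030 with the rule read at 2000 UMIs; the cause was not tested. Spp1 was lower under each of 13 alternatives (-4.08 to -1.001). The median log2 ratio of all genes was 0.0023 in the reported values and 0.0031 under TMM scaling. Low counts limit genes near 20 CPM, and no replicate could be left out. No paired analysis was possible because each genotype had 1 library.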

Other observations

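Barcodes with 3 or more of the 4 interferon genes, which the rule kept out of microglia, carried the microglial genes at intermediate levels. P2ry12 was at 392 CPM in the 112 such barcodes of Foxq1flox/flox and at 256 CPM in the 274 of Foxq1iECKO, a log2 ratio of -0.62 (-0.83 to -0.40). Siglech was at 91.6 and 60.0 CPM, and Gpr34 at 63.7 and 37.2 CPM. All 3 were lower in the Foxq1iECKO library, while in microglia their log2 ratios lay between -0.02 and 0.11. These barcodes were not chosen by microglial or border genes. The 3 border genes of the rule summed to 4071 and 4599 CPM in them, a log2 ratio of 0.18 (0.12 to 0.24), and the part of this mixture in the lower values was not tested. Plet1, a membrane protein of low abundance, was at 9.51 and 20.6 CPM in microglia and at 7.80 and 18.7 CPM in border macrophages, a log2 ratio of 1.11 and 1.26. In microglia it rested on 36 and 65 UMIs, in 2.47% and 3.44% of cells, and 1 Foxq1iECKO cell held 22 of the 65. It missed the size rule in 4 of 13 alternative settings.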
